A study of Drosophila melanogaster with 6 samples.

Results

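The nuclear RNA of unstressed eye imaginal discs was described from 3 control samples, which are 3 of the 6 samples of the study. They were chosen by their titles, WT replicates 1 to 3, and no measured value entered the choice. The larvae were Drosophila melanogaster late in the third instar, of the genotype GMR-GAL4, uas-EGFP::Msp300-KASH. The disc of the eye lies in 1 sheet with that of the antenna, and discs from about 100 larvae were pooled for each sample. The GMR driver is active behind the morphogenetic furrow, the line of cells that sweeps across the disc and behind which the photoreceptors form. There it expressed EGFP fused to the KASH part of Msp300, which holds the tag in the nuclear envelope, and the tagged nuclei were pulled down with an antibody against EGFP. From each sample some 1.5 ng of RNA went into a library from which ribosomal RNA was removed, and paired reads of 50 bp were taken. Every control thus carried the driver and the tag, and no sample of untagged nuclei or of whole discs is analysed here.

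In the third instar eye disc, cells ahead of the furrow divide and are retinal but undifferentiated. Some of the retinal determination genes, such as hth and tsh, keep them undifferentiated. At the furrow, Hedgehog, Dpp and Notch signals switch on the proneural gene atonal in evenly spaced cells, which become the founding photoreceptors R8. Each R8 then recruits the other photoreceptors, the lens-secreting cone cells and the pigment cells through the EGF receptor. The opsins and the rest of the light-sensing machinery of the adult eye are made later, in the pupa. A nucleus also holds RNA that a whole-cell extract contains little of, such as unspliced transcripts, and noncoding RNA that stays on chromatin.

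The 3 libraries held 22169330, 30641408 and 30884519 counts on genes. Levels are given as FPKM, the count scaled to the length of the gene's exons and to the depth of its library, so that genes of unequal length can be set side by side. A gene was taken as expressed at 1 FPKM or more in all 3 controls and as absent under 0.1 FPKM in all 3. A count of 0 allows up to 3 counts, which for a gene of 1 kb is 0.135, 0.0979 and 0.0971 FPKM in replicates 1, 2 and 3, counting error only. Of 17433 genes listed, 9668 (55.5%) were expressed and 3166 were absent, 2425 of them with no count in any control. Among the 13881 protein coding genes 8735 (62.9%) were expressed, at a median of 11.7 FPKM, and 1915 were absent. The numbers of expressed genes given below for lists of protein coding genes are to be read beside this 62.9%. At least 10 FPKM in all 3 controls was reached by 3959 protein coding genes, at least 100 FPKM by 278 and at least 1000 FPKM by 2. Coding genes of the mitochondrial genome are counted apart from these.

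The libraries stood apart from each other in several ways. Ribosomal RNA of the nuclear genome took 9.36%, 6.49% and 19.4% of the counts in replicates 1, 2 and 3, so it was highest in replicate 3. The mitochondrial genome took 3.74%, 1.81% and 1.56%, and was highest in replicate 1. By summed level, genes of larval fat body and salivary gland were highest in replicate 3. The gut trypsins were almost limited to replicate 2, as set out further on. Replicates also differed by exon length. Among expressed protein coding genes with exons under 1 kb the median log2 ratio of a library to the mean of the other 2 was -0.29, -0.28 and 0.40 in replicates 1, 2 and 3 (1380 genes), and among those of 8 kb or more it was 0.39, 0.01 and -0.46 (450 genes). Replicate 3 was therefore the high library for short genes and the low library for long genes, with replicate 1 opposite to it among long genes. This difference touches every level given here, and its cause was not tested.

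**Figure D1:**
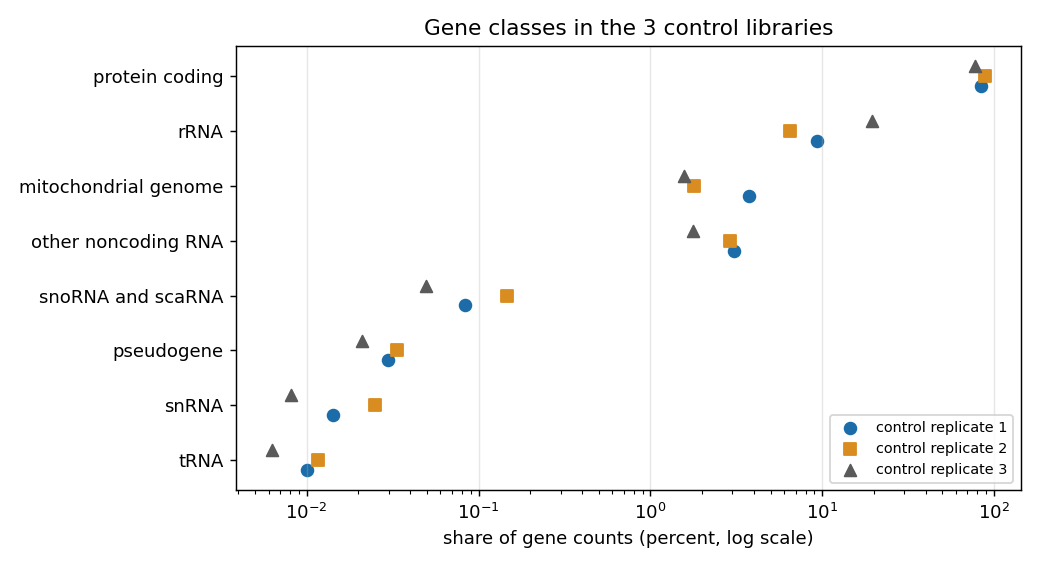
Share of the counts of each control library (percent, log scale) on each class of gene, 1 symbol per replicate. Protein coding genes took 77.0% to 88.3% of the counts and ribosomal RNA 6.49% to 19.4%, with replicate 3 highest for ribosomal RNA and lowest for most of the small noncoding classes.

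Protein coding genes took 83.5%, 88.3% and 77.0% of the counts, 83.0% ± 5.69 (SD, n = 3). Long noncoding and other noncoding RNA took 3.06%, 2.92% and 1.78%, and 580 of its 2454 genes were expressed. Small nucleolar RNAs, which guide the modification of ribosomal RNA in the nucleolus, were expressed in 190 of 288 cases (66.0%), against 55.5% of all genes listed. They took only 0.0840%, 0.146% and 0.0492% of the counts. For such short genes 1 FPKM can be a few counts. One of them, snoRNA:Me28S-A3365, had 1.79 FPKM from 4 counts in replicate 1 and 0.962 FPKM from 3 counts in replicate 3. Part of the 190 may thus rest on few counts. The counts were spread widely: outside ribosomal RNA the 10 genes with most counts took 6.98% ± 1.502, the top 100 took 23.4% ± 2.91 and the top 1000 took 64.5% ± 3.52 (SD, n = 3).

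By raw counts, which favour long genes, and with nuclear ribosomal RNA left out, the leading gene by mean share after the large ribosomal RNA of the mitochondrion was eEF1alpha1, which carries aminoacyl-tRNA to the ribosome, with 148548, 224943 and 313705 counts. It was below hdc, br and Hsromega in replicate 1 and below hdc in replicate 2, so it stood above hdc in replicate 3 alone. The next by mean share was hdc, now heca, the headcase gene of imaginal cells, with 219681, 240454 and 144148 counts over 15063 bases of exons at chr3R:30277932-30372382 (dm6, plus strand). Then came br, the broad transcription factor of the ecdysone response, with 194665, 198928 and 164842 counts. The transcription factor genes pros and lola, the noncoding RNAs Hsromega and roX1, and the RNA-binding protein genes spen and Syp made up the rest of the first 10. The list is thus made of 1 housekeeping gene and otherwise of regulators, nuclear noncoding RNA and mitochondrial ribosomal RNA. The gene hdc lies outside the rule for named genes and was chosen after its values were seen. Its levels were 658, 521 and 310 FPKM, so it was lowest in replicate 3.

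Per length the top of the list was different. RpL41, the smallest protein of the ribosome, had 4019, 3501 and 5992 FPKM and ranked 1 among protein coding genes in every control (chr2R:24903416-24903935, minus strand). The elongation factor gene eEF1alpha1 had 2719, 2979 and 4122 FPKM and ranked 2 in every control. These were the 2 protein coding genes outside the mitochondrial genome over 1000 FPKM in all 3 libraries, and their order did not change between replicates.

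Below them the order did change between replicates. RpS7 had 891, 1551 and 1783 FPKM and ranked 4, 3 and 4. Hsp23, a small heat shock protein that is also made under ecdysone control in development, had 1013, 886 and 1901 FPKM and ranked 3, 11 and 3. Its SD of 553 FPKM exceeds the step to its neighbours in the list. Act5C, a cytoplasmic actin, had 822, 1124 and 1247 FPKM, and alphaTub84B, an alpha tubulin, had 512, 584 and 1089 FPKM. Of the 20 leading protein coding genes, the remaining members were 10 further ribosomal protein genes, RpL31, RpS3, RpS3A, RpS15, RpS27, RpL39, RpL10, RpS27A, RpL23A and RpS13, and 4 others named next.

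Chromatin proteins stood among the leaders. His3.3B, which encodes the histone H3.3 that is put into chromatin outside S phase, had 821, 1007 and 1018 FPKM. His4r, the H4 gene outside the histone cluster, had 699, 940 and 1552 FPKM. Df31, a decondensation factor of chromatin, had 719, 850 and 1030 FPKM, and the cognate chaperone gene Hsc70-4 had 609, 910 and 1012 FPKM. The variant histone His2Av had 257, 410 and 411 FPKM. The replication-dependent histone genes gave the opposite picture, since none of 111 listed copies was expressed and 109 were absent. Their copies are near identical, so reads from them may have been dropped in counting, and their absence here is not a measured absence of RNA. All 39 listed genes of chromatin and nuclear RNA processing were expressed, at a median of 42.6 FPKM against 11.2 FPKM over all expressed genes, with the splicing regulators sqd at 331, 267 and 208 FPKM and Hrb27C at 290, 241 and 208 FPKM.

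Ribosomal protein genes made up a large block of the protein coding signal. Of 87 cytosolic ribosomal protein genes 81 were expressed, at a median of 339 FPKM, and their summed level was 27589, 31989 and 51943 FPKM, highest in replicate 3. Mitochondrial ribosomal protein genes were expressed in 72 of 73 cases at a median of 9.41 FPKM, and proteasome subunits in 31 of 42 cases at a median of 53.7 FPKM. For all 3 families the median log2 ratio of replicate 3 to the others lay between 0.85 and 0.95. Of the expressed members 79, 71 and 29 had exons under 2 kb, and the part of exon length in this difference was not tested.

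Noncoding RNA of at least 200 bases was led by CR40469, a 214-base gene at chrX:122493-122706 of dm6, with 7774, 12876 and 3738 FPKM. At that length its FPKM rests on few positions, and its 3 values spanned more than the mean of any other of the 10 leading noncoding genes. MRE16 had 933, 1511 and 320 FPKM, and pncr002:3R had 668, 570 and 1441 FPKM. The transcript roX1, which coats the X chromosome of males with the MSL complex and lies at chrX:3857230-3862697, had 831, 910 and 512 FPKM and its partner roX2 had 121, 333 and 169 FPKM. Hsromega, a nuclear RNA that gathers RNA-binding proteins in omega speckles, had 367, 170 and 124 FPKM, so replicate 1 was the high library. The 7SK RNA, which holds the elongation factor P-TEFb inactive, had 293, 527 and 169 FPKM. Also among the 10 leaders were noe, CR42862 and CR43283 (cherub), at means of 567 ± 212, 492 ± 74.4 and 249 ± 56.6 FPKM (SD, n = 3). Host genes of nucleolar RNAs were lower, from 8.55 FPKM or less in every control for Uhg8 up to 76.1, 88.0 and 112 FPKM for Uhg2. The bithorax complex RNA bxd had no counts, yar stayed under 0.1 FPKM, and iab-8 had 0.091, 2.18 and 0.060 FPKM, with 363 of its counts in replicate 2.

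The mitochondrial genome was led by its ribosomal RNAs, mt:lrRNA at 15941, 6655 and 6768 FPKM and mt:srRNA at 7421, 4132 and 2673 FPKM. Among its coding genes mt:CoIII and mt:CoI, subunits of cytochrome oxidase, had 2610, 1175 and 1196 FPKM and 2317, 1570 and 1024 FPKM. Replicate 1 was highest for each of these 4 genes.

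Genes that define the retinal field were all detected. All 13 retinal determination genes were expressed, at a median of 31.1 FPKM, and 12 of the 13 had a coefficient of variation (CV, SD over mean) of at most 0.3. The phosphatase and coactivator eya had 189, 188 and 134 FPKM, and its partner, the homeobox gene so, had 101, 132 and 93.3 FPKM. The Pax6 genes toy and ey had 106, 95.8 and 77.2 FPKM and 30.0, 30.2 and 23.2 FPKM, so toy was above ey in every control. dac, which acts with eya and so, had 31.3, 36.7 and 25.3 FPKM.

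Members of the same list that are known from cells ahead of the furrow were expressed too. The homeobox gene hth had 233, 134 and 91.7 FPKM, the widest spread of the list, and tsh, which works with it to keep cells undifferentiated, had 27.0, 39.5 and 37.1 FPKM. Optix had 11.0, 12.4 and 16.5 FPKM. eyg and toe, Pax genes of disc growth, were the lowest of the list at 3.94 to 7.01 FPKM. Whether these transcripts came from tagged nuclei or from other nuclei in the pull-down cannot be told apart here.

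**Figure D2:**
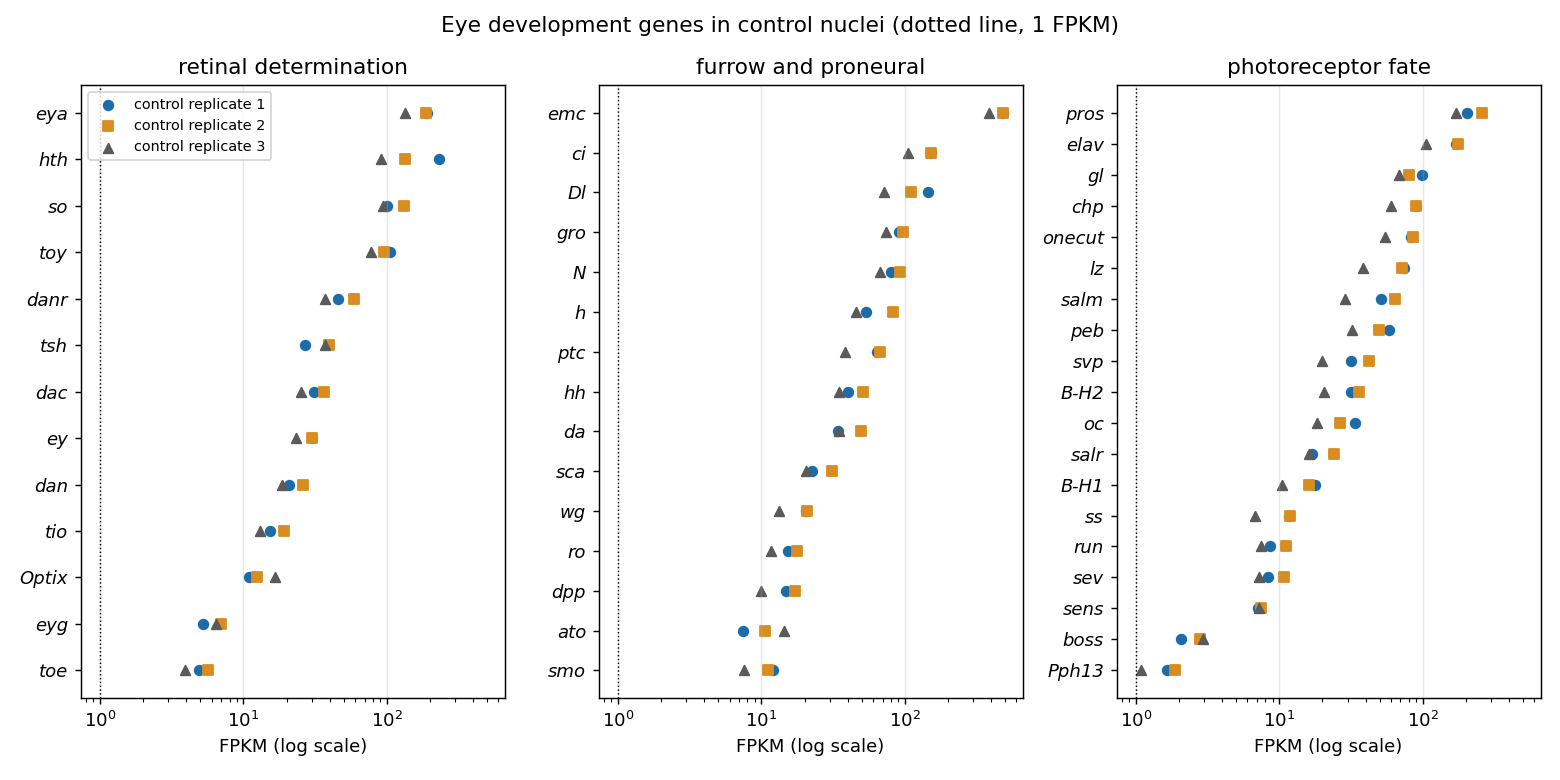
FPKM (log scale) of each retinal determination, furrow and photoreceptor gene in the 3 control libraries, genes ordered by their mean and the dotted line at 1 FPKM. Every gene lay above the line in all 3 controls, from emc at 387 to 487 FPKM down to Pph13 at 1.09 to 1.88 FPKM, and replicate 3 was often the lowest of the 3 symbols.

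All 15 furrow and proneural genes were expressed, at a median of 42.02 FPKM. emc, an inhibitor of proneural proteins, was the highest of them and of the whole list of transcription factors, with 484, 487 and 387 FPKM. The proneural gene ato had 7.45, 10.7 and 14.4 FPKM, near the bottom of the list, while its partner da had 34.0, 49.7 and 34.7 FPKM. The repressor h, active ahead of the furrow, had 53.5, 82.8 and 45.9 FPKM. For the Hedgehog pathway, the ligand hh had 40.1, 51.2 and 34.8 FPKM, the receptor ptc 64.3, 66.8 and 38.1 FPKM, the transducer smo 12.1, 11.1 and 7.55 FPKM and the effector ci 153, 153 and 106 FPKM. The Dpp ligand gene had 14.8, 17.1 and 10.01 FPKM, and wg, the Wnt ligand of the disc margin, had 20.3, 20.7 and 13.2 FPKM. In each library ci stood above hh and ptc, and the ligands dpp and wg stood below all 3.

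All 19 photoreceptor fate genes were expressed, and 16 had a CV of at most 0.3. pros, a homeobox gene of R7 and cone cells, had 202, 259 and 172 FPKM. elav, the RNA-binding protein of all neurons, had 170, 176 and 105 FPKM. gl, the zinc finger factor whose binding sites make up the GMR promoter, had 98.2, 80.7 and 68.1 FPKM, and chp, a surface protein of photoreceptors, had 89.2, 89.4 and 59.7 FPKM. Each of elav, gl and chp, which all photoreceptors use, was at 59.7 FPKM or more in every library.

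The further fate genes named next were below elav, gl and chp in every control, whereas pros, of R7 and cone cells, was above all 3. The R3, R4, R1 and R6 factor svp had 31.6, 42.3 and 19.9 FPKM, and B-H1 and B-H2, the Bar genes of R1 and R6, had 17.9, 16.2 and 10.4 FPKM and 31.7, 36.1 and 20.6 FPKM. sens, which fixes the R8 fate, had 7.16, 7.42 and 7.21 FPKM. sev, the receptor that R7 needs, had 8.37, 10.7 and 7.21 FPKM, and boss, its ligand on R8, had 2.05, 2.80 and 2.96 FPKM, below sev in every control. lz, needed in the second wave of cells, had 74.5, 72.0 and 38.6 FPKM. Pph13, a regulator of late photoreceptor genes, was the lowest at 1.66, 1.88 and 1.09 FPKM.

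Of 14 cone and pigment cell genes 10 were expressed, against 62.9% of all protein coding genes. aop (Yan), the repressor that EGF receptor signalling removes, had 210, 215 and 133 FPKM. rst and hbs, adhesion proteins that sort the interommatidial cells, had 144, 138 and 77.1 FPKM and 78.6, 83.6 and 59.7 FPKM. The cone cell factors ct and sv had 44.9, 33.4 and 26.1 FPKM and 30.2, 30.0 and 14.2 FPKM. Of the genes for eye pigment, the transporter gene w had 133, 151 and 93.4 FPKM, its partner st had 2.59, 3.04 and 2.66 FPKM, and bw and the enzyme genes v and cn were under 1 FPKM in at least 1 control. Transgenes often carry a copy of w as a marker, so reads of the resident gene and of such a copy cannot be told apart. Crys, the lens protein of the finished cone cell, was absent at 0, 0.043 and 0.014 FPKM.

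The light-sensing genes were split. Of 25 phototransduction genes 17 were expressed, a share near that of all protein coding genes (62.9%). Those 17 had a median of 6.39 FPKM against 11.7 FPKM over all expressed protein coding genes. norpA, the phospholipase C of the cascade, had 60.9, 49.98 and 31.7 FPKM and Galphaq, its G protein, had 65.3, 37.9 and 32.7 FPKM. rdgA, a diacylglycerol kinase, had 19.8, 19.9 and 14.4 FPKM, and inaC, the eye protein kinase C, had 15.8, 12.2 and 12.8 FPKM. The channel gene trp had 0.554, 1.24 and 0.343 FPKM, below its relative trpl at 3.89, 2.51 and 3.05 FPKM. norpA, Galphaq, rdgA and inaC were thus above both channels in every control.

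Among the opsins Rh6, which adult R8 cells of the yellow ommatidia use, was the highest by mean at 19.8, 16.4 and 47.2 FPKM. Rh5 had 1.38, 3.26 and 6.55 FPKM. Which cells these reads came from was not tested. Rh3 and Rh4, the ultraviolet opsins of R7, had 0, 0.704 and 0 FPKM and 0.568, 3.90 and 0.312 FPKM. ninaE, the opsin Rh1 of R1 to R6, had 1.79, 25.1 and 1.32 FPKM (63, 1222 and 65 counts), so replicate 2 stood far above the other 2 controls. In replicate 2 ninaE was above Rh6. Arr2, the main arrestin, was also highest in replicate 2, with 0.350, 6.31 and 0.440 FPKM. ninaA, the chaperone of Rh1, had no count, but its exons lie entirely within CG15824 on the other strand, and no level can be given for it.

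Signalling pathways of the disc were expressed nearly throughout. All 25 EGF receptor pathway genes listed in the table were expressed, at a median of 38.6 FPKM. The ligand spi had 207, 335 and 201 FPKM, above the other ligands Krn, at 15.3, 14.1 and 18.9 FPKM, grk and vn. Of the intramembrane proteases that release it, ru had 221, 134 and 105 FPKM and rho had 55.2, 56.9 and 37.1 FPKM. The receptor Egfr had 61.0, 58.2 and 40.2 FPKM, the inhibitor sty 68.4, 51.3 and 35.1 FPKM, and the secreted antagonist aos 37.3, 39.8 and 28.1 FPKM. Downstream, the ETS activator pnt had 58.2, 56.8 and 39.4 FPKM, and phyl, which marks Ttk for degradation in photoreceptors, had 37.9, 67.2 and 39.0 FPKM.

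All 21 Notch pathway genes were expressed as well. The receptor N had 79.8, 92.2 and 66.8 FPKM, its ligand Dl 146, 110 and 71.5 FPKM and the other ligand Ser 15.5, 16.9 and 12.01 FPKM. Dl was above Ser in every control. Of the targets, all 11 genes of the Enhancer of split complex were expressed, with E(spl)mbeta-HLH at 93.9, 151 and 131 FPKM and E(spl)m7-HLH at 77.4, 188 and 99.1 FPKM at the top of the helix-loop-helix members and E(spl)m5-HLH at 4.50, 13.1 and 6.68 FPKM at the bottom. The mediator Su(H) had 11.1, 13.5 and 12.9 FPKM. All 20 genes of the Hippo pathway and planar polarity were expressed too, and 19 had a CV of at most 0.3. nmo, a kinase of ommatidial rotation, was the highest by mean with 166, 149 and 126 FPKM, the cadherin stan had 143, 152 and 95.2 FPKM and was above it in replicate 2, and the coactivator yki had 25.1, 23.5 and 25.3 FPKM.

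Ligands of other pathways were less uniform, with 26 of 33 expressed at a median of 14.3 FPKM, against 20 of 22 receptors at 35.1 FPKM. The ligands between the limits were upd2, upd3, Ilp1, Ilp7, Ilp8 and trk, and Ilp4 had no count. myo and Actbeta, ligands of the Activin branch, had 75.2, 60.6 and 38.7 FPKM and 54.1, 42.9 and 33.2 FPKM, and their receptor babo had 115.2, 96.5 and 64.6 FPKM. jeb, a ligand that photoreceptors send to the brain, had 78.0, 36.4 and 26.7 FPKM while its receptor Alk had 14.95, 14.5 and 8.45 FPKM. The receptors that fell short of 1 FPKM in at least 1 control were btl, the FGF receptor of trachea, at 0.796, 0.790 and 1.43 FPKM, and tor.

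Neuronal genes were present beside those of fate. Of 20 listed, 19 were expressed at a median of 65.2 FPKM. The adhesion protein Fas2 had 194, 151 and 102 FPKM, the synaptic proteins Syx1A, nSyb and brp had 143, 117 and 77.6 FPKM, 78.5, 83.9 and 71.8 FPKM, and 111, 60.6 and 54.1 FPKM. Hdc, which makes histamine, the photoreceptor transmitter, was the exception at 0.825, 0.529 and 0.669 FPKM. Only 12 of the 19 had a CV of at most 0.3, and the median log2 ratio to the other libraries was 0.66 in replicate 1, -0.16 in replicate 2 and -0.64 in replicate 3. Their median exon length was 9565 bases and none was under 2 kb. Replicate 1 was also the high library and replicate 3 the low library among all genes of 8 kb or more, and the part of exon length here was not tested.

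All 30 cell cycle genes were expressed, at a median of 23.2 FPKM. E2f1, the S-phase activator, had 116, 121 and 80.7 FPKM and stg, the phosphatase that starts mitosis, had 94.7, 108 and 82.3 FPKM. The exit regulators were at like levels, with dap, an inhibitor of CycE and Cdk2, at 64.3, 78.8 and 59.9 FPKM and fzr, which degrades mitotic cyclins, at 65.0, 94.3 and 56.2 FPKM. PCNA, the replication clamp, had 41.8, 68.0 and 126 FPKM and was the member that differed most in absolute level between the libraries. The helicase subunits Mcm2, Mcm3, Mcm5, Mcm6 and Mcm7 stayed between 4.53 and 20.4 FPKM.

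Across 170 genes listed as transcription factors 154 were expressed, at a median of 21.6 FPKM, 2 were absent and 14 lay between. The list was drawn broadly, and elav in it encodes an RNA-binding protein. After emc the order by mean was br at 347 ± 88.6, pros at 211 ± 44.3, aop at 186 ± 46.2, arm at 180 ± 33.5, lola at 171 ± 37.2, eya at 170 ± 31.6, psq at 169 ± 54.6, hth at 153 ± 72.3, elav at 151 ± 39.3, nerfin-1 at 150 ± 23.0, crol at 144 ± 28.02, Eip75B at 142 ± 33.4, ci at 137 ± 27.3 and CtBP at 133 ± 23.7 FPKM (SD, n = 3). From aop to CtBP each step between neighbours was smaller than the SD of either gene. The absent factors were bin and org-1, both known from visceral muscle. Those between the limits were Clk and per of the circadian clock, tin of the heart, amos and cato of other sense organs, GATAe and byn of the gut, and Hr38, dsf, Sox15, Fer3, unpg, eve and bap.

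Genes of body position followed. Of the 8 Hox genes 7 were expressed, and Scr was the highest at 22.1, 27.9 and 20.5 FPKM, followed by Antp at 6.06, 13.3 and 6.16 FPKM and Dfd at 8.33, 6.29 and 5.79 FPKM. Ubx, abd-A, pb and lab stayed between 1.09 and 5.44 FPKM, and Abd-B had 0.115, 0.407 and 0.258 FPKM. Of 22 embryonic patterning genes 13 were expressed, a share near that of all protein coding genes (62.9%), at a median of 9.05 FPKM against 11.7 FPKM. The highest by mean was opa at 26.9, 34.3 and 21.0 FPKM. bcd had no count, and hb, eve, ftz, prd, cad and nos stayed under 1 FPKM in all 3 controls.

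Larvae of this stage receive the ecdysone pulse that starts metamorphosis, and 19 of 20 ecdysone response genes were expressed, at a median of 51.1 FPKM with 18 at a CV of at most 0.3. ImpE2, an ecdysone-inducible gene of discs, had 551, 735 and 855 FPKM. br had 444, 328 and 270 FPKM, Eip75B 172, 148 and 106 FPKM and Eip74EF 43.4, 48.2 and 32.3 FPKM. The receptor gene EcR had 59.2, 59.9 and 35.7 FPKM and its partner usp 19.04, 31.4 and 21.8 FPKM. Hr3 and ftz-f1, which act later in the cascade, had 3.12, 3.12 and 1.76 FPKM and 3.05, 3.13 and 1.76 FPKM. Shared exons, in which counts can be lost, make up 82.7% of Hr3 and 29.4% of ftz-f1, so their order against the early genes is not read.

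The stress regulators were measured here without imposed stress. Of 22 genes 21 were expressed, at a median of 26.4 FPKM. Hsc70-3, the ER chaperone BiP, had 248, 306 and 289 FPKM, the highest of the list. The sensors of the unfolded protein response were present at moderate level, with PEK (PERK) at 17.6, 16.8 and 14.5 FPKM, Ire1 at 18.02, 35.1 and 17.4 FPKM and Atf6 at 62.3, 42.4 and 28.1 FPKM. Of the transcription factors, crc (ATF4) had 59.4, 67.1 and 60.3 FPKM, Xbp1 had 46.0, 67.1 and 76.1 FPKM and Xrp1 had 99.7, 98.1 and 89.9 FPKM.

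The annotation has 73.5% of the exon length of crc shared with CG46314, and counts on shared exons can be lost, so its level and that of Xrp1, which shares none, are not compared. The 3 values of Xrp1 lay close together. Its partner Irbp18 had 19.1, 14.8 and 19.8 FPKM, and cnc, the Nrf2 homologue, had 55.1, 50.8 and 36.7 FPKM with its inhibitor Keap1 at 5.88, 8.34 and 6.12 FPKM. Thor, the translation inhibitor 4E-BP, had 69.8, 83.4 and 184 FPKM and was highest in replicate 3. GstD1, the detoxifying transferase, lay around the limit for an expressed gene with 1.498, 0.852 and 1.65 FPKM (28, 22 and 43 counts). Among apoptosis genes 13 of 15 were expressed: the inhibitor Diap1 had 105, 146 and 111 FPKM, hid 61.0, 60.5 and 34.2 FPKM, rpr 8.01, 32.3 and 14.2 FPKM and grim 2.10, 1.10 and 1.11 FPKM.

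All 16 nuclear envelope genes were expressed at a median of 33.3 FPKM. The B-type lamin Lam had 89.6, 124 and 119 FPKM, against 12.1, 18.3 and 14.0 FPKM for the A-type lamin LamC. klar, a KASH protein that moves photoreceptor nuclei, had 97.0, 118 and 69.9 FPKM, and koi, the SUN protein it binds, had 23.1, 32.0 and 23.9 FPKM. Msp300 had 57.1, 47.2 and 37.5 FPKM, and as the tag holds a part of this gene, transgene and resident RNA cannot be told apart in it.

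Markers of other cells were present in the pull-down. All 10 antennal genes were expressed, with Dll, the distal limb gene, at 40.7, 39.2 and 29.4 FPKM and al at 9.12, 8.06 and 9.95 FPKM, while hth, dan, danr and ss of this list also act in the eye. Of 11 glial genes 10 were expressed, and repo, the factor of nearly all glia, had 4.201, 5.37 and 6.15 FPKM. Of 11 hemocyte genes 10 were expressed, with Hml at 4.198, 5.56 and 4.70 FPKM. By the same limit 62.9% of all protein coding genes were expressed. Sums were 146, 173 and 178 FPKM for the glial and 108, 145 and 154 FPKM for the hemocyte genes. These sums lean on their highest members and do not give the level of each marker. Ppn gave 47.3, 61.0 and 41.8 FPKM of the hemocyte sum, while NimC1 had 1.18, 1.57 and 0.197 FPKM. The prophenoloxidase gene PPO1 of crystal cells stood apart at 4.13, 5.86 and 29.6 FPKM. The antennal sum was 457, 396 and 268 FPKM, lowest in replicate 3. Of it hth alone gave 233, 134 and 91.7 FPKM, so its fall is not read as one of antennal cells. Fewer cells of a type and less RNA per cell cannot be told apart in such pools.

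Genes of larval storage and secretory tissue differed more between libraries. The salivary glue gene Sgs7 had 201, 26.1 and 938 FPKM and Sgs3 had 104, 5.09 and 304 FPKM, and the 9 glue genes summed to 565, 63.3 and 2002 FPKM. In fat body genes Fbp1, a receptor for larval serum protein, had 4.15, 9.09 and 129 FPKM and Lsp1gamma, one such serum protein, had 3.36, 2.86 and 67.0 FPKM. The fat body list summed to 90.3, 107 and 372 FPKM, but apolpp and FASN1, which are not limited to that tissue, were level at 26.4, 26.1 and 32.9 FPKM and 25.7, 28.9 and 30.4 FPKM. Replicate 3 was thus highest for both tissues, replicate 2 lowest for glue.

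**Figure D3:**
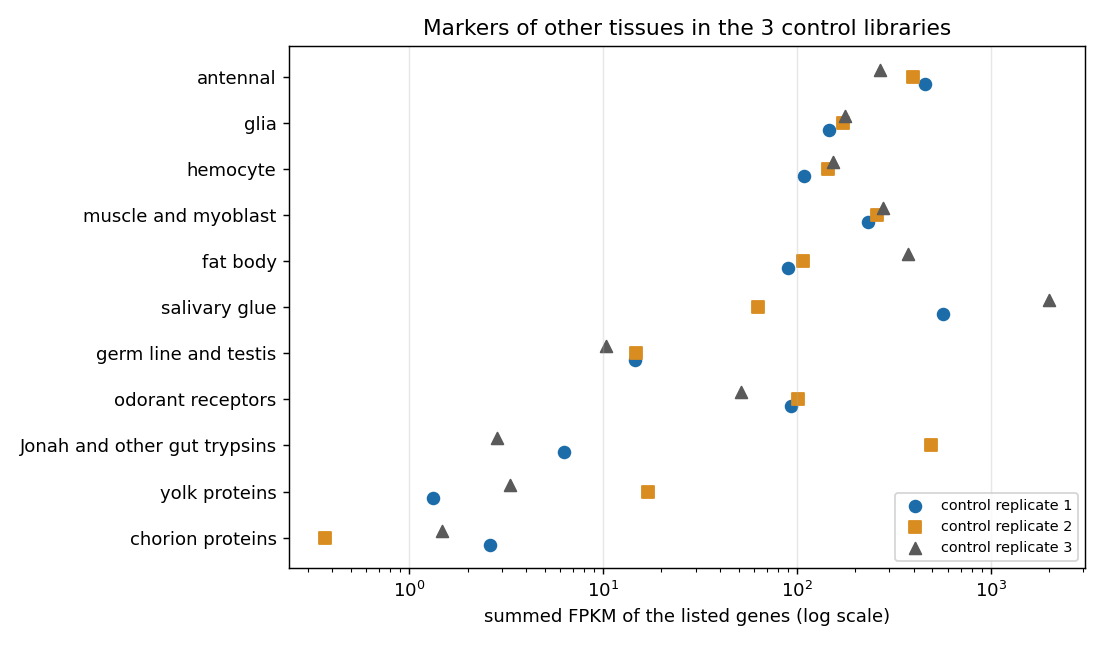
Summed FPKM (log scale) of marker genes of other tissues in the 3 control libraries. For each of the glial, hemocyte and muscle lists, the sums of the 3 libraries lay within 1.5 times of each other. Each sum leans on its highest members, and single markers differed more, as PPO1 did (4.13, 5.86 and 29.6 FPKM). The antennal sum was 457 FPKM in replicate 1 and 268 FPKM in replicate 3, of which hth gave 233 and 91.7 FPKM. Glue genes ranged from 63.3 FPKM in replicate 2 to 2002 FPKM in replicate 3. Gut trypsins ranged from 2.85 FPKM in replicate 3 to 491 FPKM in replicate 2.

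Genes held by a single library were counted as those with at least 100 counts there and a TMM-scaled level at least 10 times that in both other controls. Replicate 2 had 51 of them, replicate 3 had 11 and replicate 1 had 4. Those of replicate 2 were headed by the gut proteases Jon65Aiii, with 0.361, 232 and 0.185 FPKM, Jon65Aiv, with 0, 155 and 0.143 FPKM, and Jon74E, with 1.08, 30.3 and 0.771 FPKM. They also held the opsin ninaE and the arrestin Arr2 described above, the yolk protein gene Yp1 at 9, 577 and 29 counts, the testis tubulin betaTub85D at 53, 901 and 71 counts and the lysozyme gene LysD at 2, 515 and 7 counts. Some genes known from gut, gonad and adult eye were thus high in the same library, but wider lists did not all share this. The phototransduction list summed to 248, 241 and 207 FPKM, and the germ line and testis list to 14.5, 14.7 and 10.4 FPKM. Rh6 was lowest in replicate 2 at 19.8, 16.4 and 47.2 FPKM, as was the chorion sum at 2.61, 0.370 and 1.47 FPKM. In replicates 1 and 3 none of the 27 gut trypsins listed exceeded 2.65 FPKM.

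In replicate 3 the genes were Fbp1, Lsp1gamma, Lsp1beta, Lsp2, Lsp1alpha and Fbp2 of the fat body, the odorant-binding protein gene Obp99b at 30, 52 and 2109 counts, the stress peptide gene TotA, GstE3, CG34166 and CG42587. Replicate 1 had CG42834, with 2099, 2 and 1 counts, CG14332, with 1119, 0 and 2 counts, the cuticle gene Lcp4 and CG42798. The cause of these differences was not tested.

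The Y and X chromosomes were read next, since discs of both sexes can be pooled and the labels give no sex. None of the 23 protein coding genes on the Y was expressed, and all 10 listed Y genes, known from the testis, were absent. On X 1455 of 2167 protein coding genes (67.1%) were expressed, against 7280 of 11691 (62.3%) on the autosomes. The median of expressed genes was 9.50, 12.3 and 11.6 FPKM on X and 9.91, 12.8 and 12.3 FPKM on autosomes, a ratio of 0.953 ± 0.012 (SD, n = 3). All 12 genes of dosage compensation and sex were expressed, among them msl-2, translated in males alone, at 18.3, 32.6 and 19.2 FPKM and Sxl at 93.0, 80.1 and 57.9 FPKM.

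Chromosome 4 stood out from the other arms. This small chromosome is largely heterochromatic and its active genes are bound by the protein POF. Of its 79 protein coding genes 76 (96.2%) were expressed, and their median was 72.6, 62.7 and 49.7 FPKM, against 9.42 to 13.0 FPKM on every other arm. They took 4.16%, 3.61% and 3.06% of protein coding counts. Genes on 4 are long, with a median of 4380.5 bases of exons against 2093 on the other autosomes, and longer genes had higher levels in general. Among expressed genes with 4000 to 8000 bases of exons the median was 90.3, 81.5 and 57.3 FPKM for the 32 on chromosome 4, against 19.3, 22.4 and 17.4 FPKM for the 1193 on other autosomes.

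Levels on 4 were high across gene functions. RpS3A had 827, 771 and 1392 FPKM, the mitochondrial ATPsynbeta 169, 305 and 425 FPKM, and the translation factor eIF4G1 188, 197 and 149 FPKM. Signalling and synaptic genes followed, with the guidance receptor PlexA at 192, 176 and 103 FPKM, Cals, a synaptic cadherin, at 193, 163 and 102 FPKM, and CaMKII at 172, 134 and 95.4 FPKM. The eye regulators ci, toy, ey and sv described above lie there too. The genes short of the limit were JYalpha, at 0.072, 0 and 0.031 FPKM, CG11077, which shares 94.6% of its exons, and CG32006.

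**Figure D4:**
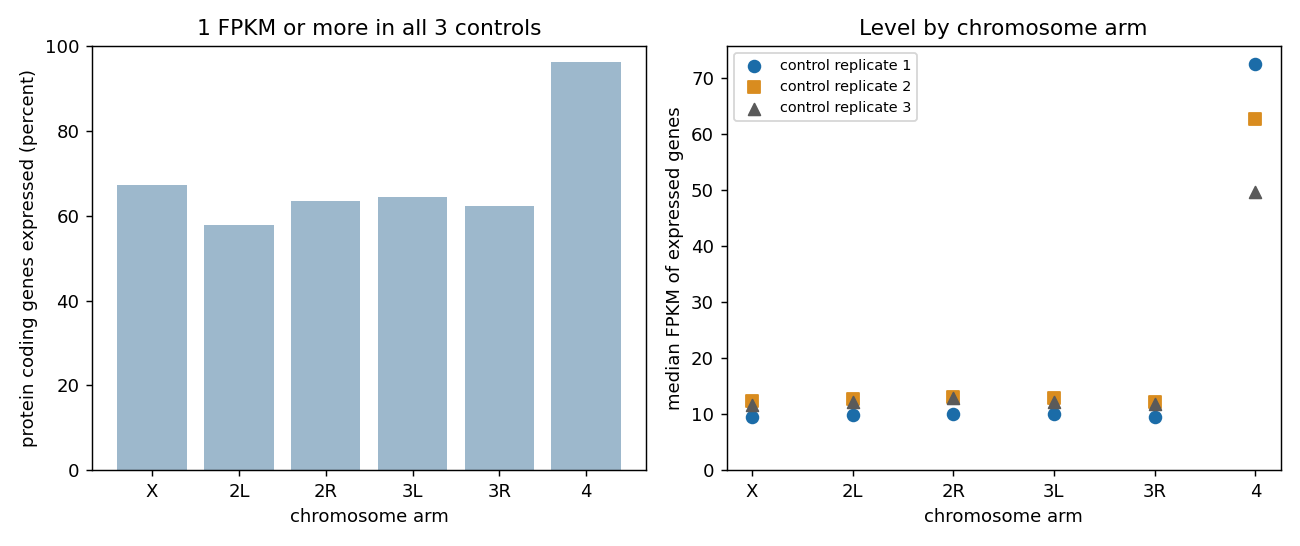
Left, percent of protein coding genes with at least 1 FPKM in all 3 controls on each chromosome arm, and right, the median FPKM of those genes in each control. Chromosome 4 had 96.2% expressed and medians of 49.7 to 72.6 FPKM, above every other arm in all 3 libraries.

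Introns are abundant in nuclear RNA, so genes that lie within another gene were examined apart. Protein coding genes were sorted by whether their whole span lay inside another gene, leaving out those that share 10% or more of their exons. Of 10551 genes inside no other gene 64.6% were expressed. Of genes nested on the same strand, the share was 24.1% where the host was under 1 FPKM, 39.6% at 1 to 10 FPKM, 74.0% at 10 to 50 FPKM and 92.5% at 50 FPKM or more (29, 134, 200 and 40 genes). Of genes nested on the other strand it was 23.2%, 40.9%, 78.7% and 88.3% (99, 301, 418 and 103 genes).

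The share of nested genes expressed was thus higher under higher hosts, by like steps on both strands. Examples are the seminal protein gene Acp36DE inside Fas3, at 11.9, 12.2 and 5.86 FPKM, and Sfp65A inside CG13300, at 40.7, 34.8 and 15.3 FPKM, while their hosts averaged 90.4 and 117 FPKM. Reads of unspliced host RNA and of the nested gene cannot be told apart in these counts. Where exons themselves overlap, the counts were low instead: of 504 protein coding genes sharing at least 90% of their exons 80.6% had no count in any control, and of the 112 that share them with the other strand alone 67.0% had none, against 7.86% of the 11875 genes sharing under 10%. Absence of such genes, ninaA and Hsp22 among them, is not a measured absence of RNA. Of the genes named above crc, Hr3, grim, Mcm7, Lsp2, cn, iab-8 and Antp share over 50% of their exons, and their levels carry this limit. The gene that overlaps Antp was matched to none of the genes listed, so whether Antp lost counts is not known.

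**Figure D5:**
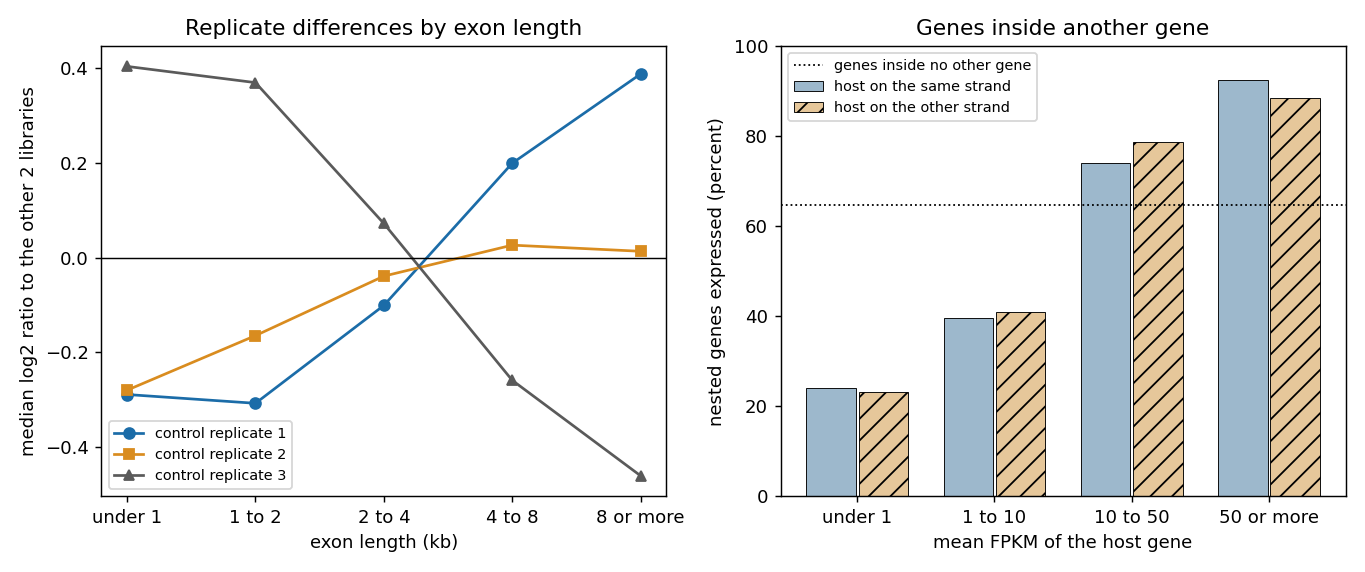
Left, median log2 ratio of each control to the mean of the other 2 for expressed protein coding genes in classes of exon length, and right, percent of nested protein coding genes expressed by the mean FPKM of their host, with genes inside no other gene as a dotted line at 64.6%. Replicate 3 went from 0.40 in the shortest class to -0.46 in the longest, and the share of nested genes expressed was 23.2% to 24.1% under the lowest hosts and 88.3% to 92.5% under the highest.

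The spread between the 3 controls set how firmly a level can be read. Over the 9668 expressed genes the median CV was 0.267, and 4077 had a CV above 0.3, a limit that the study set for induced genes in the other genotype and not for controls. The median CV was 0.393 for genes with a mean under 100 counts, 0.311 at 100 to 1000, 0.203 at 1000 to 10000 and 0.227 above 10000 counts. Counting error alone gives 0.131, 0.0537, 0.0206 and 0.00786 in these classes, so the spread exceeded counting error in each of them. The biological coefficient of variation from edgeR, a spread common to all genes, was 0.367 over 10916 genes.

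The steadiest genes with a mean of at least 500 counts were Kal1 at 14.1, 14.1 and 13.9 FPKM, CG2556 at 16.7, 16.8 and 16.5 FPKM, the RNA-binding protein gene caz at 46.1, 46.0 and 46.9 FPKM, the decay factor gene Upf2 at 11.96, 12.1 and 11.9 FPKM, and the transcription factor gene SoxN at 70.5, 68.5 and 69.8 FPKM. The least steady were Jon65Aiv, CG42834, Jon65Aiii, Obp99b, Lsp1beta, CG34166, Jon74E, Lsp2, Lsp1gamma and Fbp1, with CVs of 1.49 to 1.73. Each of these 10 was carried by a single library, so none has a level that the 3 controls share.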

How the data were processed

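The authors aligned paired reads to dm6 with STAR (2.6.1d) and counted them per gene with featureCounts (Subread 1.6.3). They deposited raw counts and FPKM, which equal the counts divided by exon length and library total. Annotation release, strand setting and treatment of reads mapping to several places are not given in the sources used here. Only the 3 control columns of each table were used, and 6 columns of the other genotype were left out. Of 17433 symbols, 17357 were matched to the Ensembl annotation of dm6, 3600 of them by synonym, and 5 had been turned into dates. Classes, exon overlap and nesting come from that annotation, with mitochondrial ribosomal RNA under the mitochondrial genome. TMM factors and dispersions were computed with edgeR 4.0.16 in R 4.3.3 and tested on simulated data. No test between groups was made. Samples were separate pools, so SDs cover animals and handling together.

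Named genes are the 20 protein coding and 10 noncoding genes (at least 200 bases) with the highest mean FPKM, members of 31 lists (of transcription factors, the top 15), and the 10 highest and 5 lowest CVs among genes with a mean of 500 counts or more. Others were chosen after their values were seen. Lists were chosen with earlier results of these data known. Alternatives were other thresholds, TPM, a total without ribosomal RNA, TMM and RLE scaling, DESeq2 1.42.0 dispersions, and each replicate left out.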

Additional observations from a re-analysis of the deposited data

How the results depend on the processing

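No paired analysis was possible because a single group was described. Counting error was below the spread between replicates in every class of counts, and the 3 replicates limit every SD. The number of absent genes was 4750 at a limit of 0.5 FPKM. As shares of summed FPKM, ribosomal RNA took 24.1%, protein coding genes 63.2%, the mitochondrial genome 5.26% and the top 100 genes 28.4%, and the top 100 genes took 31.7% of counts with ribosomal RNA included. The median CV was 0.214 among genes of at least 10 FPKM and 0.306 in TPM, and 1101 genes of at least 10 FPKM had a CV above 0.3. The biological coefficient of variation was 0.510 with no filter, 0.306 with a robust estimate and 0.311 as the DESeq2 median. Leaving out each replicate gave a median CV of 0.202 to 0.256 and a biological coefficient of variation of 0.337 to 0.378, lowest without replicate 3 for both. With all 3 replicates kept, 23 of 35 values stayed within 1.5 times (counts of genes) or within the spread between replicates. For the median CV and the biological coefficient of variation that spread was the SD of the values with each replicate left out. Without 1 replicate the ribosomal RNA share was 7.93% to 14.4% and the mitochondrial share 1.68% to 2.77%. Of 217 recounts of the lists 215 stayed within 1.5 times, and at a limit of 2 FPKM the Hox list had 4 expressed genes in place of 7 and the germ line list 1 in place of 2. Leaving out 1 replicate moved the mean of 37 of the 574 named genes with a mean of at least 1 FPKM by over 1.5 times, 3 without replicate 1, 11 without replicate 2 and 23 without replicate 3.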

Other observations

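Several gene families of other tissues had members at levels that their family as a whole did not reach. Among 60 odorant receptors 6 were expressed, and Or65c, which lies inside no other annotated gene, had 56.2, 58.8 and 27.2 FPKM. Of 60 ionotropic receptors 7 were expressed, with Ir94e at 35.6, 39.6 and 16.3 FPKM. Of 60 gustatory receptors 11 were expressed, all at 7.85 FPKM or less in Gr39a, the highest. Obp44a, an odorant-binding protein gene, had 299, 481 and 757 FPKM, the highest of 15 expressed members of 51. The cytochrome P450 gene Cyp4p2, which lies inside hig, had 189, 98.9 and 129 FPKM while that host averaged 8.29 FPKM. None of 27 gut trypsins and none of 9 chorion genes reached 1 FPKM in all 3 controls. The trypsins still summed to 6.31, 491 and 2.85 FPKM, high in replicate 2, and the chorion genes to 2.61, 0.370 and 1.47 FPKM.

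Insulin-like peptides of the brain were highest in replicate 3, with Ilp2 at 9.70, 5.89 and 17.3 FPKM, Ilp5 at 1.98, 1.02 and 15.7 FPKM and Ilp3 at 2.40, 2.39 and 10.2 FPKM. The prophenoloxidase genes PPO1 and PPO2 of crystal cells had 4.13, 5.86 and 29.6 FPKM and 3.01, 3.56 and 19.1 FPKM, while the hemocyte gene Hml stayed at 4.198 to 5.56 FPKM. Of the small heat shock genes Hsp26 was level at 487, 473 and 460 FPKM, while Hsp27 had 215, 267 and 525 FPKM.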
